A study of Drosophila melanogaster with 18 samples.

Results

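To ask which mRNAs of the fly head differ between the end of the light phase and the end of the dark phase whatever the temperature, the libraries collected at ZT11 were compared with those collected at ZT23. ZT (zeitgeber time) counts the hours after lights on, so in the 12:12 light-dark cycles used here ZT11 falls just before lights off and ZT23 just before lights on. The 6 libraries were chosen by the time and temperature in their labels, and they are 6 of the 18 of the series: 3 of ZT11 (1 library per temperature: 18°C, then 25°C, then 29°C, the order in which values are listed below) and 3 of ZT23 (the same). All were made from polyadenylated RNA of heads of wild-type Canton-S flies entrained for at least 3 days at their temperature, and 3′ RNA-seq, which reads the 3′ end of each mRNA, was used throughout. No sex, age or number of flies is stated. Each time and temperature has 1 library, so the 3 temperatures served as the replicates of a time point and the comparison was made within temperatures. A difference between temperatures could therefore not be tested, and the p-values measure the spread around effects common to the 3 temperatures.

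The circadian clock of the fly is a transcriptional feedback loop. CLOCK (CLK) and CYCLE (CYC) activate *period* (*per*), *timeless* (*tim*), *vrille* (*vri*) and *Par-domain protein 1* (*Pdp1*), the PER and TIM proteins later repress CLK and CYC, and VRI represses *Clk*. Messenger RNAs driven directly by CLK and CYC are known to be high around dusk and in the early night and *Clk* mRNA to be high around dawn, and in the head the same clock runs in neurons, photoreceptors, glia and fat body.

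The values are read numbers that the authors had scaled by 1 constant per library, called signal below. The estimated depth was 3.32, 4.10 and 4.77 M reads for the ZT11 libraries of rising temperature, against 2.91, 3.02 and 6.62 M reads for ZT23, within a range of 1.24 to 6.62 M over the 18 libraries. A signal worth 3 reads, taken as the limit of detection, lay between 1.55 and 4.12 in these 6 libraries; this limit covers counting error only. The yolk protein mRNAs *Yp1*, *Yp2* and *Yp3*, which are made in the female fat body, took 9.06%, 8.57% and 4.40% of the signal at ZT11, against 17.4%, 7.67% and 5.78% at ZT23 (exact permutation p = 0.5, two-sided, exchanging times within temperatures; the smallest p that 3 pairs allow is 0.25). All 6 fat body markers together took 4.61% to 9.78% of the signal at ZT11 and 6.17% to 19.2% at ZT23. Their share was lower at ZT11 at 18°C and 29°C and higher at 25°C. Of these 6 libraries the 18°C ZT23 library had the highest share, and of the series the 18°C ZT7 library (19.35%). Photoreceptor markers took 1.20%, 2.01% and 2.65% at ZT11, against 1.24%, 2.15% and 2.97% at ZT23. Their share was lower at ZT11 in each pair (exact permutation p = 0.25, the smallest possible). In these 6 libraries the 5 ovary markers together took at most 0.000722% of the signal, the 3 testis markers at most 0.000206% and the 2 accessory gland markers in the table at most 6.62e-05%; of these, *Mst84Da* and *dj* (testis) and *Acp26Aa* (accessory gland) were at 0 in all 6. In bulk heads, fewer cells of a type and less RNA per cell cannot be told apart.

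Of 8846 rows tested (a row is a 3′ end or a group of transcripts of a gene with the same values, here 8200 genes), 31 differed between ZT11 and ZT23 at an adjusted p under 0.05 (limma, Benjamini-Hochberg), which is 0.35% of the rows. Of these, 18 (0.203%) were higher at ZT11 and 13 (0.147%) were lower, and 807 rows (9.12%) had an unadjusted p under 0.05. The same fit called 5 rows between ZT3 and ZT15 (0.0565%) and 1 row between ZT7 and ZT18 (0.0113%), the other pairs of times that lie about as far apart. Most of the calls lay close to the threshold, since 18 of the 31 had an adjusted p above 0.045, and the count depended on the processing. Without the temperature block it was 2 (*CG34134* and *Ubpy*), with the 29°C pair left out 3, and with library-size scaling 44 (39 higher and 5 lower). *CG34134* and *Ubpy* passed the threshold in each of the 19 alternatives run.

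All 31 called rows had a difference of the same sign at the 3 temperatures, as did 31.8% of all rows tested. The 3 ZT11 values and the 3 ZT23 values did not overlap in 11 of the 18 rows that were higher and in 8 of the 13 that were lower, against 10.6% of all rows. These counts describe the called rows and are not separate evidence, because the calls were made on the same libraries.

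**Figure D1:**
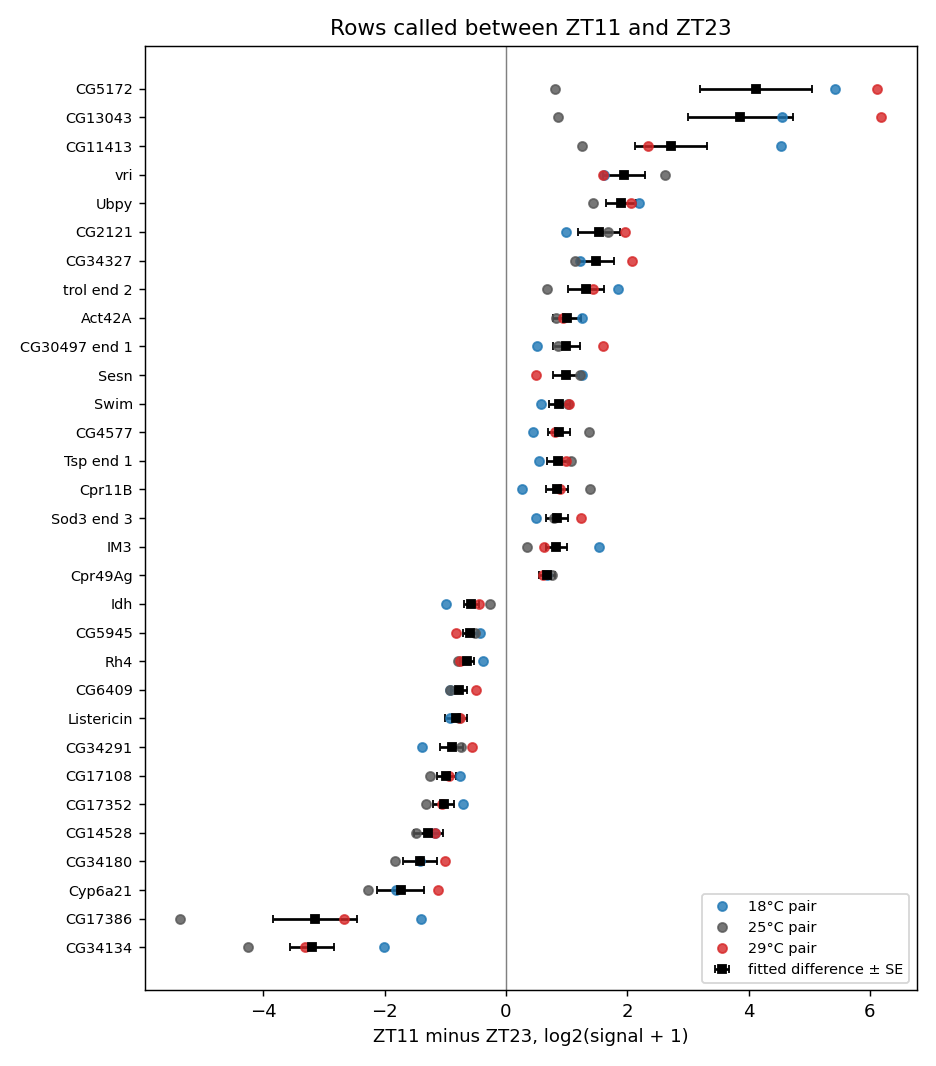
Differences between ZT11 and ZT23 (x axis, log2 of signal + 1) of the 31 called rows, 1 per line. Coloured points are the 3 pairs of libraries and black squares the fitted difference with its standard error; the 18 rows at the top lie right of 0 at every temperature and the 13 at the bottom left of it, and the points of *CG5172*, *CG13043* and *CG17386* spread most.

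Among the clock genes, *vri*, which encodes the bZIP repressor of *Clk*, was the one whose difference passed the test. Its signal was 213, 230 and 204 at ZT11 (18°C, 25°C and 29°C), against 68.7, 36.4 and 66.9 at ZT23. The groups did not overlap, and ZT11 was 3.09-, 6.32- and 3.05-fold higher (fitted difference 1.95 ± 0.35 on the log2(signal + 1) scale, SE; limma adjusted p = 0.0108). Its mean over temperatures was highest at ZT15 and lowest at ZT23.

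The 3′ end of *tim* that the full-length isoforms share gave 308, 432 and 435 at ZT11, against 64.6, 218 and 257 at ZT23. Each ZT11 value was thus above every ZT23 value, but the size of the gap was uneven (4.76-fold at 18°C, 1.99-fold at 25°C and 1.69-fold at 29°C) and the difference of 1.33 ± 0.36 did not pass (limma adjusted p = 0.125). The shorter 3′ end, that of *tim-sc*, had 60.7, 9.44 and 0 at ZT11 and 5.50, 0 and 1.03 at ZT23 (1.87 ± 0.98; limma adjusted p = 0.596), and 3 of these 6 values lay at or under the signal of 3 reads.

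For *per*, which encodes the partner of TIM, the signal was 71.5, 49.5 and 23.2 at ZT11 and 22.0, 16.6 and 25.8 at ZT23. The ZT11 library was the higher one at 18°C and at 25°C and the lower one at 29°C, and the difference of 1.01 ± 0.44 did not pass (limma adjusted p = 0.459). The last 49 bases of the *per* transcript overlap the end of *CG2650* on the other strand, and whether reads were counted by strand is not stated.

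*Clk*, the gene of the activator, had a low signal with the opposite sign: 1.96, 8.65 and 1.29 at ZT11, with 2 of these values at or under that of 3 reads, against 19.2, 9.94 and 20.1 at ZT23 (−2.05 ± 0.95; limma adjusted p = 0.505). The other rows of the loop did not pass either. *clockwork orange* (*cwo*), a repressor of CLK targets, gave 0.75 ± 0.41, the first and second 3′ ends of *Pdp1* gave 0.41 ± 0.25 and 0.09 ± 0.18, *cyc* gave 0.36 ± 0.31 and the blue-light photoreceptor gene *cryptochrome* (*cry*) gave −0.24 ± 0.36. In all, 1 of 10 tested rows of the 8 core clock genes was called, 3 had an unadjusted p under 0.05 with a positive difference (*vri*, *tim* and *per*) and 1 with a negative one (*Clk*). Of all rows tested, 9.12% had an unadjusted p under 0.05 in either direction.

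*Ubpy*, now also called *Usp8*, encodes a ubiquitin-specific protease that is known in flies to remove ubiquitin from CLK. It was in the list of clock kinases, phosphatases and ligases, where it was the single call among 25 rows. Its signal was 155, 180 and 207 at ZT11, against 33.0, 66.3 and 48.9 at ZT23. The groups were far apart at each temperature, with ZT11 4.69-, 2.72- and 4.24-fold higher (1.90 ± 0.25; limma adjusted p = 0.000281), and the mean was highest at ZT11 and lowest at ZT23. Of the kinases and ligases, *CkIIalpha* (−0.44 ± 0.17, unadjusted p = 0.016, adjusted 0.377 in limma), the catalytic subunit of casein kinase 2, and *jet* (−0.81 ± 0.38, adjusted 0.523), the ligase adaptor that acts on TIM in the light, came next.

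**Figure D2:**
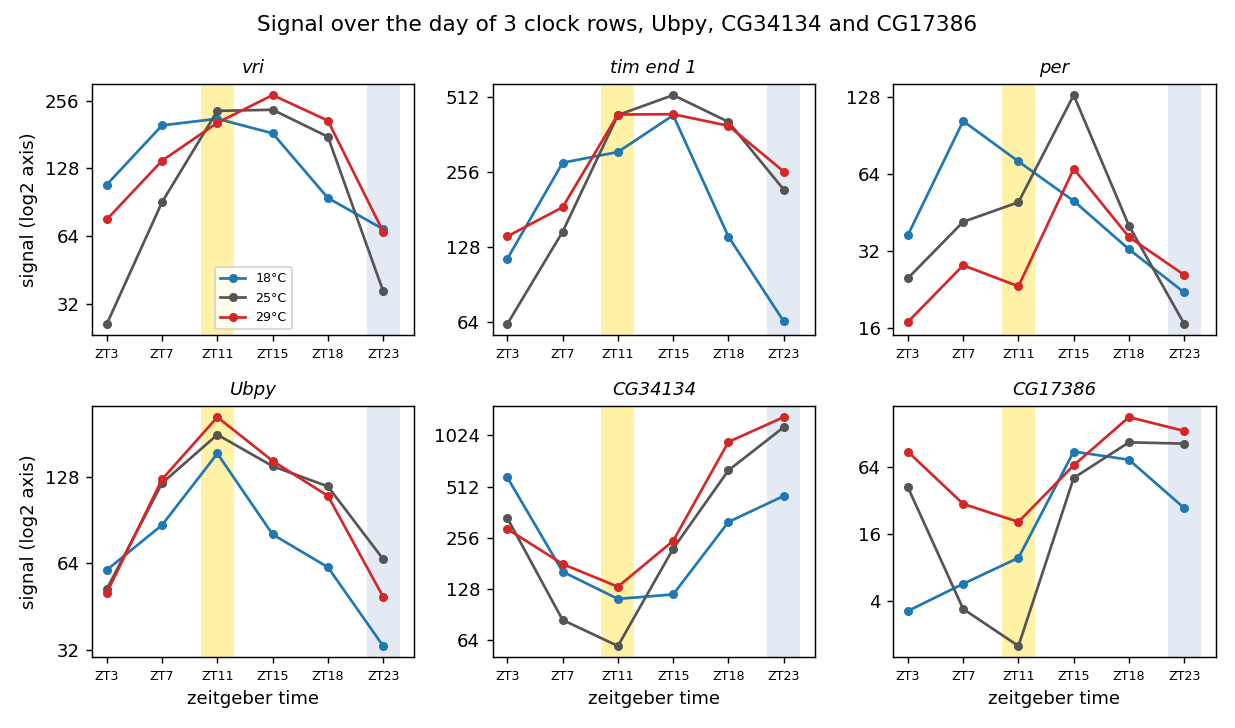
Signal (y axis, log2 scale) over the 6 times (x axis, zeitgeber time) of *vri*, the longer *tim* 3′ end, *per*, *Ubpy*, *CG34134* and *CG17386*, with 1 line per temperature and 1 library per point. Yellow marks ZT11 and blue ZT23; *vri* and *Ubpy* were high in yellow and low in blue at all 3 temperatures, *CG34134* and *CG17386* the reverse, and the 3 lines of *per* crossed.

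The row with the smallest p-value was *CG34134* (dm3 2L, 8190297 to 8190781, minus strand), whose function is not annotated in the sources used here. It had 112, 59.0 and 132 at ZT11, against 451, 1145 and 1313 at ZT23, which was 4.04-, 19.4- and 9.97-fold lower at ZT11. The highest ZT11 value was below the lowest ZT23 value (−3.19 ± 0.36; limma adjusted p = 3.63e-05). It was also the single row called, as lower, when ZT7 and ZT15 were compared with ZT3 and ZT18, the times on either side of the 2 studied (−1.56, limma adjusted p = 0.0202).

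*CG17386*, named *Achilles* in RefSeq, had 9.80, 1.57 and 20.7 at ZT11, against 27.5, 105 and 136 at ZT23 (−3.14 ± 0.69; limma adjusted p = 0.0484). The 25°C value at ZT11 was under the signal of 3 reads, so no fold is given for that pair; ZT11 was 2.81-fold lower at 18°C and 6.60-fold lower at 29°C. *Cyp6a21*, a cytochrome P450, had 13.2, 14.5 and 40.0 at ZT11, against 48.8, 74.5 and 88.1 at ZT23. All its ZT11 values were below its ZT23 values (−1.74 ± 0.39; limma adjusted p = 0.0489). Both were among the 34 rows of a list of known head outputs of the clock, of which these 2 were called lower and none higher; 8 had a negative and 2 a positive difference at an unadjusted p under 0.05. Of all 8846 rows tested, 444 had a negative and 363 a positive difference at that level.

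Other members of that list did not pass. *CG2650* (*dyw*) had 172, 94.4 and 250 at ZT11, against 5.50, 48.6 and 13.4 at ZT23 (3.27 ± 0.77; limma adjusted p = 0.0613), and its transcript is the one that overlaps *per*. *takeout* (*to*), a juvenile hormone-binding family member linked to feeding, had 11.8, 12.6 and 26.5 at ZT11, against 97.6, 33.1 and 54.1 at ZT23 (−1.76 ± 0.49; limma adjusted p = 0.135). In both genes no ZT11 value overlapped the ZT23 values. *Slob*, a regulator of the Slowpoke potassium channel, gave 0.76 ± 0.22 for its first 3′ end (limma adjusted p = 0.154).

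*Rh4*, the ultraviolet-sensitive rhodopsin of a subset of R7 photoreceptors, had 1463, 1170 and 1157 at ZT11, against 1890, 2032 and 1961 at ZT23. The groups did not overlap, and the gap was modest, a fitted 1.56-fold (−0.64 ± 0.11; limma adjusted p = 0.0108). The gene *sina*, inside the *Rh4* transcript on the other strand, had a mean signal of 45.5 and gave 0.57 ± 0.40. *Rh3*, the rhodopsin of the other R7 cells, gave −0.35 ± 0.11 (limma adjusted p = 0.247). Of the 42 rows for light input and the photoreceptor cascade, *Rh4* was the single call, and 21 differences were positive and 21 negative. *Arr2*, the main arrestin of the eye, gave −0.39 ± 0.12, while *norpA* (phospholipase C) and *ninaC* (the myosin III of photoreceptors) gave 0.57 ± 0.16 and 0.59 ± 0.15 for 1 of their 3′ ends each (limma adjusted p = 0.194, 0.162 and 0.103). *CG17352* (*Culd*), known to act in the endocytosis of rhodopsin, had 231, 253 and 433 at ZT11, against 377, 632 and 899 at ZT23. ZT11 was the lower library in each pair, 1.63-, 2.49- and 2.08-fold (−1.02 ± 0.17; limma adjusted p = 0.00689), although the 29°C value at ZT11 exceeded the 18°C value at ZT23.

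Its neighbour *Idh*, the NADP-dependent isocitrate dehydrogenase, lies 108 bases away on the same strand and had 3402, 2630 and 2342 at ZT11, against 6768, 3155 and 3200 at ZT23 (−0.57 ± 0.12; limma adjusted p = 0.0484). *CG17108*, whose p-value was the smallest after those of *CG34134* and *Ubpy*, had 21229, 14645 and 15202 at ZT11, against 35938, 34711 and 29178 at ZT23. Its groups lay well apart, with ZT11 lower by 1.69-, 2.37- and 1.92-fold (−0.98 ± 0.15; limma adjusted p = 0.00369). *CG6409* had 1847, 1676 and 1957 at ZT11, against 3489, 3164 and 2758 at ZT23, again without overlap (−0.78 ± 0.13; limma adjusted p = 0.00689).

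The remaining rows that were lower were *CG34180* (−1.42 ± 0.27), *CG14528* (−1.28 ± 0.24, a neprilysin-like peptidase gene, *Nepl18*), *CG34291* (−0.90 ± 0.20), *Listericin* (−0.82 ± 0.18, an antibacterial protein) and *CG5945* (−0.59 ± 0.12, *Jhbp13*, of the juvenile hormone-binding protein family), with limma adjusted p between 0.015 and 0.0484. *CG34180* had 63.7, 41.7 and 69.1 at ZT11, against 172, 150 and 140 at ZT23, so that its groups did not overlap. It shares 97 bases with *CG9140* on the other strand, which had a mean signal of 1557 against 91.2 for *CG34180* and a difference of −0.18 ± 0.12. *CG34291* lies 185 bases from *CG6503* on the same strand, which had a mean signal of 12520 against 677.7 for *CG34291*. *CG6503* gave a difference of the same sign (−0.38 ± 0.15; limma adjusted p = 0.409), and its part in the result was not tested. *CG14528* lies within *CG33203*, on the opposite strand, which had a mean signal of 47.6 against 129.5 for *CG14528* and a difference of the same sign (−0.79 ± 0.43; limma adjusted p = 0.614); its part in the result was not tested.

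Among the called rows, the largest positive fitted differences were those of *CG5172* and *CG13043*, for which the sources used here give no function. *CG5172* (dm3 X, 17115475 to 17116684) had 22827, 6969 and 3939 at ZT11, against 531, 3967 and 55.6 at ZT23 (4.12 ± 0.92; limma adjusted p = 0.0484). *CG13043* had 3976, 990 and 373 at ZT11, against 169, 548 and 4.12 at ZT23 (3.86 ± 0.86; limma adjusted p = 0.0484). In both, the gap was wide at 18°C and at 29°C (43.0- and 70.8-fold, and 23.5- and 90.4-fold) and small at 25°C (1.76- and 1.81-fold), and the 25°C value at ZT23 exceeded the 29°C value at ZT11. *CG11413* too differed least at 25°C (2.39-fold), with 566, 428 and 161 at ZT11, against 23.4, 179 and 30.9 at ZT23 (2.71 ± 0.59; limma adjusted p = 0.0484). *CG11413* lies within *CG4622*, which is on the other strand and gave −0.83 ± 0.49. For *CG5172*, *CG13043* and *CG11413* the differences at the neighbouring times were −0.50, −0.28 and 0.20, and none had an unadjusted p under 0.05 there.

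**Figure D3:**
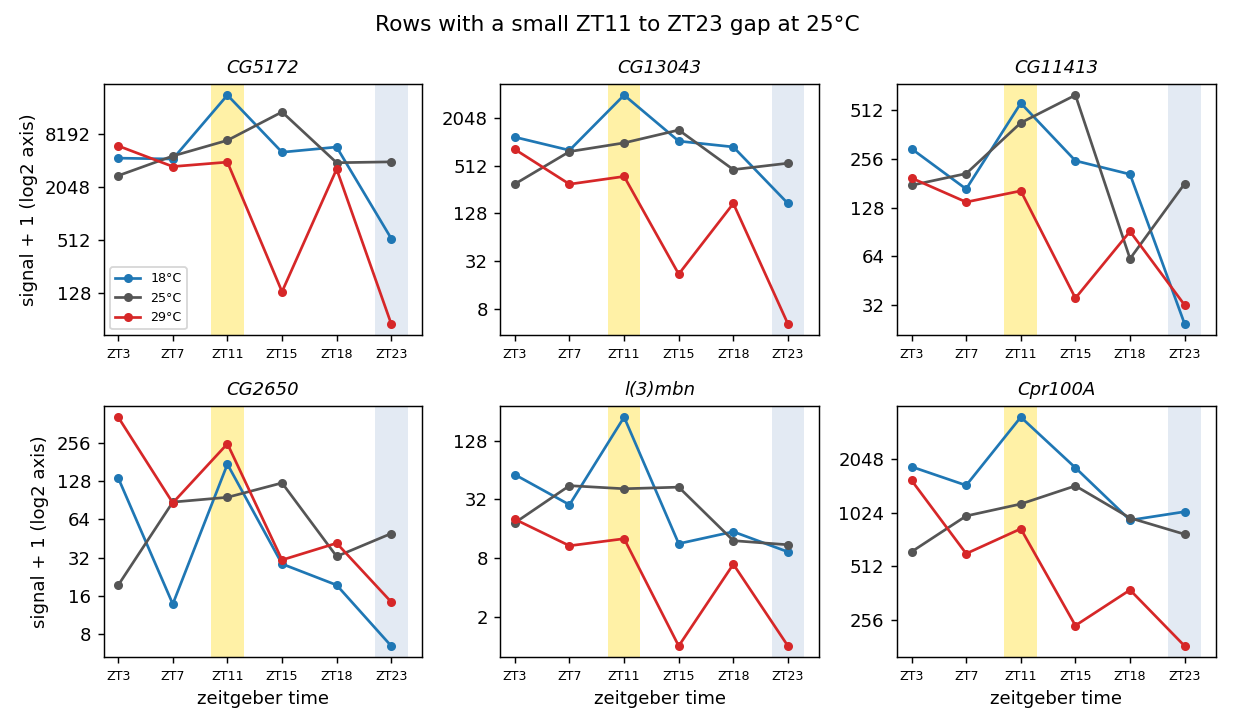
Signal + 1 (y axis, log2 scale) over the 6 times (x axis, zeitgeber time) of *CG5172*, *CG13043*, *CG11413*, *CG2650*, *l(3)mbn* and *Cpr100A*, with 1 line per temperature and 1 library per point, ZT11 in yellow and ZT23 in blue. The 18°C lines peak at ZT11, the 25°C lines at ZT15 (in *l(3)mbn* at ZT7 and ZT15 alike), and the 29°C lines of *CG5172*, *CG13043* and *l(3)mbn* fall steeply at ZT15 and ZT23.

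*CG34327* ends 317 bases from the end of *CG5172*, on the other strand, and had 262, 177 and 88.5 at ZT11, against 111, 79.5 and 20.1 at ZT23 (1.48 ± 0.30; limma adjusted p = 0.0338). Its ratio was similar at 18°C and 25°C (2.35- and 2.23-fold) and 4.40-fold at 29°C. *l(3)mbn* had 222, 40.1 and 11.6 at ZT11, against 8.25, 9.94 and 0 at ZT23 (3.39 ± 0.78; limma adjusted p = 0.0554), and did not pass.

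*trol* encodes perlecan, a proteoglycan of basement membranes, and its second 3′ end gave 51.9, 66.0 and 64.6 at ZT11, against 13.7, 40.9 and 23.2 at ZT23. These values did not overlap (1.32 ± 0.30; limma adjusted p = 0.0489), while the other, stronger 3′ end of the gene gave 0.22 ± 0.23 (limma adjusted p = 0.881). *Tsp*, the matrix protein thrombospondin, gave 0.86 ± 0.19 at its first 3′ end (limma adjusted p = 0.0484) and 1.46 ± 0.49 at its second (limma adjusted p = 0.287). *Swim*, a secreted protein that binds Wingless, had 416, 488 and 387 at ZT11, against 278, 241 and 187 at ZT23, with no overlap (0.88 ± 0.18; limma adjusted p = 0.0302). Its transcript shares 70 bases with *Vps35* on the other strand, which gave 0.00 ± 0.27.

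*Act42A*, a cytoplasmic actin, had 163, 177 and 138 at ZT11, against 67.4, 99.4 and 71.6 at ZT23 (1.01 ± 0.23; limma adjusted p = 0.0488), and its groups did not overlap. *Sod3*, an extracellular superoxide dismutase, was called at 1 of its 3 tested ends, with 411, 250 and 247 at ZT11, against 291, 145 and 105 at ZT23 (0.84 ± 0.18; limma adjusted p = 0.0484), and the others gave 0.41 ± 0.17 and 0.28 ± 0.18. *Sesn* encodes sestrin, an inhibitor of TORC1 that responds to stress, and had 273, 166 and 130 at ZT11, against 114, 70.7 and 91.7 at ZT23. Its ZT11 values all exceeded its ZT23 values (0.99 ± 0.22; limma adjusted p = 0.0484).

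Of the immune genes (44 rows), *IM3*, a Bomanin peptide induced by the Toll pathway, was called. It had 7778, 5106 and 4387 at ZT11, against 2693, 4016 and 2843 at ZT23 (0.83 ± 0.17; limma adjusted p = 0.0302). The groups did not overlap, and the ratio was 2.89-fold at 18°C, 1.27-fold at 25°C and 1.54-fold at 29°C. Its relative *IM2* gave 0.45 ± 0.14, the antifungal peptide gene *Drs* 0.48 ± 0.17 and *IM14* 0.35 ± 0.15 (limma adjusted p = 0.241, 0.331 and 0.443). Of the 44 rows, 27 were positive and 17 negative, and the differences ran from −1.37 to 0.90. At an unadjusted p under 0.05, 4 were positive and 1 was negative, against 9.12% of all rows tested in either direction. *Listericin*, which was lower, was not in this list.

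*CG2121* (1.54 ± 0.34), *CG30497* (0.99 ± 0.22 at its first 3′ end) and *CG4577* (0.88 ± 0.19), of no stated function, were the other calls higher at ZT11, each with a limma adjusted p of 0.0484. *CG2121* had 85.2, 83.3 and 123 at ZT11, against 42.6, 25.4 and 30.9 at ZT23, so that each ZT11 value was 2.00 to 3.97 times that of its pair.

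Cuticle protein genes encode chitin-binding proteins of the exoskeleton. Of 31 tested rows (82 genes were listed), 24 had a positive difference, 20 of them at all 3 temperatures, and 2 were called, both higher. Over all rows tested, 47.3% had a positive difference, 13.7% were positive at all 3 temperatures, and 0.35% were called. *Cpr49Ag* had 509, 674 and 561 at ZT11, against 319, 399 and 368 at ZT23 (0.68 ± 0.14; limma adjusted p = 0.0302), and *Cpr11B* had 337, 348 and 274 at ZT11, against 280, 133 and 147 at ZT23 (0.85 ± 0.18; limma adjusted p = 0.0484). *Cpr49Ag* did not overlap between the groups and had nearly the same ratio at each temperature (1.60-, 1.69- and 1.52-fold), whereas the 18°C value of *Cpr11B* at ZT23 exceeded its 29°C value at ZT11. *Cpr11B* lies within *CG43921* on the other strand. The median difference of the 31 rows was 0.68, against −0.02 for all rows tested, with medians within temperatures of 0.32 (18°C), 0.48 (25°C) and 0.89 (29°C). A further 9 rows had an unadjusted p under 0.05 with a positive difference, among them *Cpr100A* (1.51 ± 0.40) and *Ccp84Ab* (2.76 ± 0.75), and *Cpr67B* had one with a negative difference (−0.57 ± 0.15; limma adjusted p = 0.119, 0.125 and 0.0944). At the neighbouring times the median of the cuticle rows was 0.03, with 16 of 31 positive.

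Genes of the cytosolic ribosome gave small differences of 1 sign. Of 82 tested rows of ribosomal protein genes none was called by limma, 73 had an unadjusted p under 0.05, and all 82 were negative at 18°C, at 25°C and at 29°C in the values as deposited. Over all rows tested, 9.12% had an unadjusted p under 0.05 and 18% were negative at all 3 temperatures. The fitted differences of the ribosomal rows ran from −0.41 to −0.21 with a median of −0.29 (−0.33 at 18°C, −0.21 at 25°C and −0.34 at 29°C). *RpS23* had 7948, 10956 and 11327 at ZT11, against 10875, 13003 and 16402 at ZT23 (−0.41 ± 0.11; limma adjusted p = 0.12, the lowest of the list). Scaling each library to its total signal gave a median of −0.12, and at 18°C 28 of the 82 differences then were positive. This scaling moved the median of all rows by 0.16 on the log2 scale, in the upward direction. As a share of the signal, the 82 rows took 18.9%, 24.1% and 27.5% at ZT11, against 19.2%, 27.2% and 31.4% at ZT23, so the gap at 18°C was slight on that scale. The yolk share at 18°C was 9.06% at ZT11 and 17.4% at ZT23, and between 10.8% and 18.3% at the other times. The part of the yolk share in this value was not tested. At the neighbouring times the sign was the opposite, with all 82 rows positive and a median of 0.08.

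The ribosomal genes also lie together in genomic span: when the tested rows were cut by it into 5 classes of equal size, 76 of the 82 were in the 2 shortest. Over all rows the median difference was −0.10 in the shortest class and 0.08 in the longest, and, in classes by signal, 0.07 in the lowest and −0.08 in the highest. Whether span or signal has a part in the ribosomal values was not tested. Of all 8846 rows tested, 4659 were negative, 444 of them at an unadjusted p under 0.05. Of the mitochondrial ribosomal proteins, 58 of 73 rows were negative with a median of −0.23, and of the translation initiation factors 19 of 25 with a median of −0.11; none was called by limma, and 9 and 4 had an unadjusted p under 0.05, all negative. With library-size scaling, tried on these gene groups after their values had been seen, the medians were −0.07 and 0.06, so the sign of the initiation factors turned.

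Proteasome subunits, the parts of the protease that degrades ubiquitin-tagged proteins, had the other sign; this list was added after the values had been seen. All 32 tested rows had a positive fitted difference, against 47.3% of all rows tested, with a median of 0.43. None was called by limma and 14 had an unadjusted p under 0.05, against 9.12% of all rows tested. The gap rested largely on 18°C, with a median of 0.84 there, against 0.23 at 25°C and 0.13 at 29°C. The summed signal of the 32 rows was 18873 in the 18°C ZT11 library, against 10785 to 12360 in the other 18°C libraries. At 25°C the sum was higher at ZT15 than at ZT11 (11963 against 10331). At 29°C it was higher at ZT3 and ZT7 than at ZT11 (10261 and 8647, against 8555). *Rpn7*, a lid subunit, had 416, 232 and 212 at ZT11, against 172, 156 and 139 at ZT23 (0.82 ± 0.21; limma adjusted p = 0.0944, the lowest of the list). Leaving out the 18°C pair lowered the median to 0.15, and leaving out the 18°C ZT11 library alone lowered it to 0.18. Of these genes 28 were in the 2 shortest classes by genomic span, and whether span has a part in their values was not tested.

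**Figure D4:**
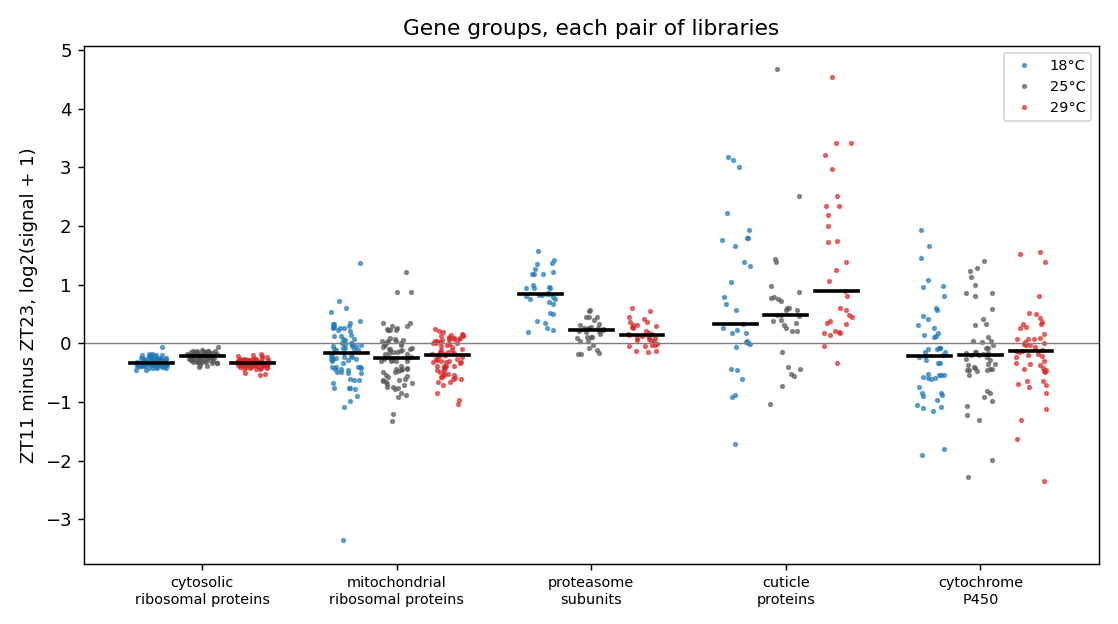
Differences between ZT11 and ZT23 (y axis, log2 of signal + 1) of the tested rows of 5 gene groups (x axis), with 1 point per row and pair of libraries, coloured by temperature, and a black bar at the median. Cytosolic ribosomal proteins lie below 0 at each temperature, proteasome subunits highest at 18°C, and cuticle proteins spread up to above 4.

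Cytochrome P450 genes, which encode oxidases of foreign and endogenous compounds, had 31 of 50 rows negative (26 with library-size scaling, median −0.03) with a median of −0.19 (−0.21, −0.20 and −0.14, from 18°C to 29°C). *Cyp6a21* was the single call, and 11 rows had an unadjusted p under 0.05, all negative, such as *Cyp6g1* (−0.59 ± 0.17; limma adjusted p = 0.152). Glutathione S-transferases were negative in 18 of 26 rows (median −0.13, turning to 0.03 with library-size scaling) and odorant-binding proteins in 20 of 27 (median −0.25, and −0.09 with that scaling), with no call in limma and 4 and 5 rows at an unadjusted p under 0.05 in either direction. Of all 8846 rows tested, 4659 were negative in the values as deposited, and 9.12% had an unadjusted p under 0.05 in either direction. *Obp69a* had 1.96, 7.86 and 3.87 at ZT11, against 12.4, 33.1 and 33.5 at ZT23 (−2.31 ± 0.72; limma adjusted p = 0.215).

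Muscle contractile proteins were positive in 30 of 38 rows (median 0.27, and 0.43 with library-size scaling, 12 at an unadjusted p under 0.05, all positive), and 22 of them were positive at all 3 temperatures; none was called by limma. Over all rows tested, 47.3% were positive, 13.7% were positive at all 3 temperatures, and 9.12% had an unadjusted p under 0.05 in either direction. *Act57B*, a muscle actin, had 1324.5, 742 and 547 at ZT11, against 843, 557 and 397 at ZT23 (0.51 ± 0.15; limma adjusted p = 0.173). Of the 4 flight muscle markers listed, 2 passed the filter and were tested: *Act88F* and *TpnC41C* gave −0.29 ± 1.19 and 0.21 ± 0.28. Genes of synaptic vesicle release were positive in 27 of 33 rows with a median of 0.13 (0.29 with library-size scaling) and 3 at an unadjusted p under 0.05; none was called by limma. Across genes of sleep, neuropeptides, sugar, lipid, heat shock and insulin signalling, limma called none of 184 tested rows, and 14 had an unadjusted p under 0.05. That share is below the 9.12% of all rows tested. The lipase gene *dob* came nearest (−0.94 ± 0.26; limma adjusted p = 0.139), followed by the peptide precursor *Nplp3* (0.61 ± 0.17; limma adjusted p = 0.148).

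The 12 libraries of the other times were used to see how the called rows behaved on either side. The mean of ZT7 and ZT15, which adjoin ZT11, was compared with that of ZT3 and ZT18, which adjoin ZT23. Of all 8846 rows tested, 511 had an unadjusted p under 0.05 in this comparison, 286 of them higher. Of the 13 rows that were lower at ZT11 all 13 were also lower in this comparison, against 48.2% of all rows with a negative difference, and 7 of them at an unadjusted p under 0.05. Of the 18 that were higher 13 were higher here too, against 51.5% of all rows with a positive difference, and 7 at an unadjusted p under 0.05. *CG5172*, *CG13043*, *CG34327*, *Act42A* and *Sesn* had the opposite sign, *Sesn* (−0.33) at an unadjusted p under 0.05 in limma. Over the 6 times, 15 of the 18 had their highest mean at ZT11 and 17 their lowest at ZT23, and of the 13, 12 had their highest at ZT23 and 10 their lowest at ZT11. The choice of the rows, made on the ZT11 and ZT23 libraries, favours such a pattern, so these counts are a description. The 3 exceptions with a later maximum, at ZT15, were *vri*, *Cpr11B* and the called end of *trol*.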

How the data were processed

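Fly head RNA of 18 libraries (3 temperatures by 6 times, 1 library each) was measured by 3′ RNA-seq. The authors deposited 1 table of signal per annotated transcript, in which reads had been scaled with a single factor for each library. How the factors were obtained, the aligner and the counting rule for these libraries are not given in the sources used here. The submitters' processing notes name dm3, Bowtie2, TopHat and Cufflinks without roles. Between 91.4% and 97.6% of a library's values above 0 were whole multiples of the worth of 1 read (tolerance 0.01), so the values were not treated as counts and no count model was run. The total divided by that worth gave 1.24 to 6.62 M reads per library. No other column of values was present (0 unmapped). The time called ZT18 in the titles is called zt19 in the descriptions and column names, and ZT18 is used here.

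Of 29561 rows, 667 held no values. Repeats of a gene's row were dropped and rows under 10% different merged, leaving 16490, of which 13790 were above 0. A row was tested when 6 or more of the 18 libraries had a signal of 10 or higher. Values were taken as log2(signal + 1), which understates the changes of low rows, and fitted over all 18 libraries with limma 3.58.1 in R 4.3.3 (empirical Bayes with a trend), with time as a factor and temperature as a block, the pairing that the labels give. P-values of the contrast ZT11 minus ZT23 were adjusted over all rows (Benjamini-Hochberg, threshold 0.05). Library properties were compared by an exact permutation test over 8 exchanges within temperatures.

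The rows named are those called with the same sign at 3 temperatures (the 15 with the largest positive difference and all with a negative one), all core clock rows, and the called members of gene lists. Rows named beyond this rule, such as near misses, were chosen after their values were seen. The comparison and the lists were chosen with earlier results of these data known; the lists of proteasome subunits, mitochondrial ribosomal proteins, muscle contractile proteins, translation initiation factors and vacuolar ATPase subunits were added after the values had been seen (vacuolar ATPase: 12 of 20 rows positive, none called by limma, 2 at an unadjusted p under 0.05). Of the other lists, limma called none of 18 monoamine rows (2 at an unadjusted p under 0.05), 6 UDP-glycosyltransferase rows (0) and 4 Turandot rows (2), and 1 of 23 redox rows (*Sod3*, with 4). The share of all rows at an unadjusted p under 0.05 was 9.12%. Alternatives were other pseudocounts, filters, scalings, sets of libraries and the fit without the temperature block; edgeR was not run because the values are not counts. Positions are those of the table (dm3, counted from 1), and promoter sequences were not used here. Newer gene names are from RefSeq.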

Additional observations from a re-analysis of the deposited data

Results flagged for a closer look

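The called rows, the core clock rows and the Turandot rows were looked through for temperatures that moved in opposite ways between ZT11 and ZT23; in 6 of them 2 temperatures did so, each by at least 0.3 on the log2(signal + 1) scale. With 1 library per time and temperature the difference was not tested in any of them. *TotC*, a Turandot peptide gene of the stress response, had 141, 564 and 41.3 at ZT11 (18°C, 25°C and 29°C), against 609, 277 and 623 at ZT23, a difference of 1.02 at 25°C and −3.88 at 29°C. *TotA* followed the same order, with 183, 498 and 83.3 at ZT11, against 705, 218 and 469 at ZT23, and 1.19 at 25°C against −2.48 at 29°C. *TotX* gave 2.13 at 18°C and −1.42 at 29°C. All 3 overlapped between the groups and none was called by limma (adjusted p = 0.346 for *TotC*, 0.564 for *TotA* and 0.987 for *TotX*).

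Among the clock rows, *cyc* gave 0.99 at 18°C and −0.31 at 25°C, and *cry* gave 0.33 at 25°C and −0.74 at 18°C. The shorter 3′ end of *tim* gave 3.38 at 25°C and −1.02 at 29°C, where both values (0 at ZT11 and 1.03 at ZT23) lay under the signal of 3 reads.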

How the results depend on the processing

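The count of called rows, 31 in the main analysis, was 2 without the temperature block, which is the pairing (357 rows at an unadjusted p under 0.05), 14 with the 6 ZT11 and ZT23 libraries alone and the block (8 shared with the 31), 13 with a pseudocount of 0.25, 8 with no filter, 59 with repeated rows kept and 50 without the shallow 25°C ZT15 library (all 31 among them). It lay between 3 and 10 when the ZT11 and ZT23 pair of 1 temperature was left out and between 3 and 14 when 1 of the 6 libraries was. Library-size scaling gave 44 calls, 88.6% of them higher against 58.1%, and 23 shared with the 31; it moved the median of the ribosomal proteins to −0.123. Fits on fewer libraries have fewer degrees of freedom. Why the count moved was not tested. Of 758 values of named rows under alternatives, 438 kept their side of the threshold, 316 no longer passed it and 4 changed sign: *cry* without the 18°C pair (0.0093; −0.529 to 0.0093 over the libraries left out), the second end of *Pdp1* without the 25°C pair (−0.033) or the 25°C ZT23 library (−0.028; range −0.033 to 0.18), and *cyc* without the 18°C ZT23 library (−0.086; range −0.086 to 0.70). All 316 values that no longer passed belonged to the 31 called rows. The 438 include the core clock rows that were not called in the main analysis and so had no call to lose. For the called rows alone, the call was lost in more of the values than it was kept. The block changed the call of 29 rows. Depth limits *Clk*, the shorter *tim* end and *CG17386*, whose lowest values rest on 3 reads or fewer. With a pseudocount of 4 the count was 33, with median-of-ratios scaling 30, and with the filter on the 6 libraries 31.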
